A study of Mus musculus with 12 samples.

Results

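Corticosteroids act on a cell through 2 receptors of the nuclear receptor family and through an enzyme pair that sets how much active hormone a cell holds, and the genes of that apparatus were followed here in mice given excess corticosterone (CORT), the main glucocorticoid of rodents. The 10 genes were chosen by symbol, with earlier results of these data known: the receptors *Nr3c1* (glucocorticoid receptor, GR) and *Nr3c2* (mineralocorticoid receptor), the reactivation enzymes *Hsd11b1* and *H6pd*, the receptor chaperones *Fkbp4*, *Ptges3* and *Hsp90ab1*, and the receptor cofactors *Ncoa1*, *Ncoa2* and *Ncor1*. All 10 of the 10 were listed among the 22249 gene symbols shared by the 3 tissues and stood above 0 in all 12 libraries.

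The tissues sampled, from male C57BL/6J mice, were gastrocnemius, liver and gonadal white adipose tissue (WAT). All mice carried a floxed exon 3 of *Nr3c1*, which codes for part of the DNA-binding domain. GRf/f mice had no Cre, and GRmKO mice had a Cre transgene driven by *Acta1*, the skeletal actin gene, used to delete the exon in muscle fibres and not in the other cells of the muscle, in liver or in WAT. Treatment began at 8 weeks of age and lasted 4 weeks, with CORT at 100 µg/mL in drinking water that held 1% ethanol, or with the ethanol alone (vehicle). Each of the 12 libraries was 1 pool of RNA from 3 mice, with 1 library per tissue, genotype and treatment. With no replicate there is no test of a condition, and every interval below covers counting error alone. Both GRf/f liver libraries carry sample numbers outside the run of the other libraries, and whether they were handled apart is not stated. In liver, genotype cannot be told apart from that split.

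Inactive 11-dehydrocorticosterone is turned back into corticosterone inside the endoplasmic reticulum by 11β-hydroxysteroid dehydrogenase type 1, the product of *Hsd11b1*, which takes its NADPH from hexose-6-phosphate dehydrogenase, the product of *H6pd*. Free GR waits in the cytosol in a complex with HSP90, p23 and an immunophilin, moves to the nucleus on binding hormone, and there recruits coactivators and corepressors. The mineralocorticoid receptor binds corticosterone too, and is shielded from it only where the opposing enzyme, encoded by *Hsd11b2*, is present.

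The libraries held between 19394572 and 20940660 estimated counts. Values are given as CPM (each count scaled to a common library total), and 3 counts, taken as the lowest level that can be told from 0, came to between 0.143 and 0.155 CPM. The summed level of 8 muscle fibre genes was 103112 to 141891 CPM in gastrocnemius and at most 7.16 CPM in liver and 201 CPM in WAT. The sum of 8 hepatocyte genes was 88187 to 145495 CPM in liver, and the sum of 8 adipocyte genes was 26269 to 32657 CPM in WAT, so the tissue labels matched their defining genes. Some listed genes were also found off their tissue. In vehicle GRmKO WAT the muscle sum of 201 CPM held 199 CPM of *Acta1*, and the hepatocyte sum of 5891 CPM held 5824 CPM of *Cyp2e1*. The adipocyte sum reached 667 CPM in gastrocnemius. In bulk tissue, fewer cells of a type and less RNA per cell cannot be told apart.

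A gene was called changed where the ratio of its CPM values, with 0.5 CPM added to each, reached 2-fold, and the share of all tested genes past the same fold is given beside each count of called members. Of the 120 changes (10 genes in 12 comparisons), 6 passed 2-fold and 14 passed 1.5-fold. The 6 were *Nr3c1* in gastrocnemius between genotypes under either treatment, *Hsd11b1* in WAT with CORT in either genotype, *Hsd11b1* in gastrocnemius between genotypes under vehicle, and *Nr3c2* in liver between genotypes under CORT. In each of the 3 tissues the comparisons share libraries: the vehicle GRmKO library, for example, serves both the CORT comparison in GRmKO mice and the genotype comparison under vehicle.

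**Figure D1:**
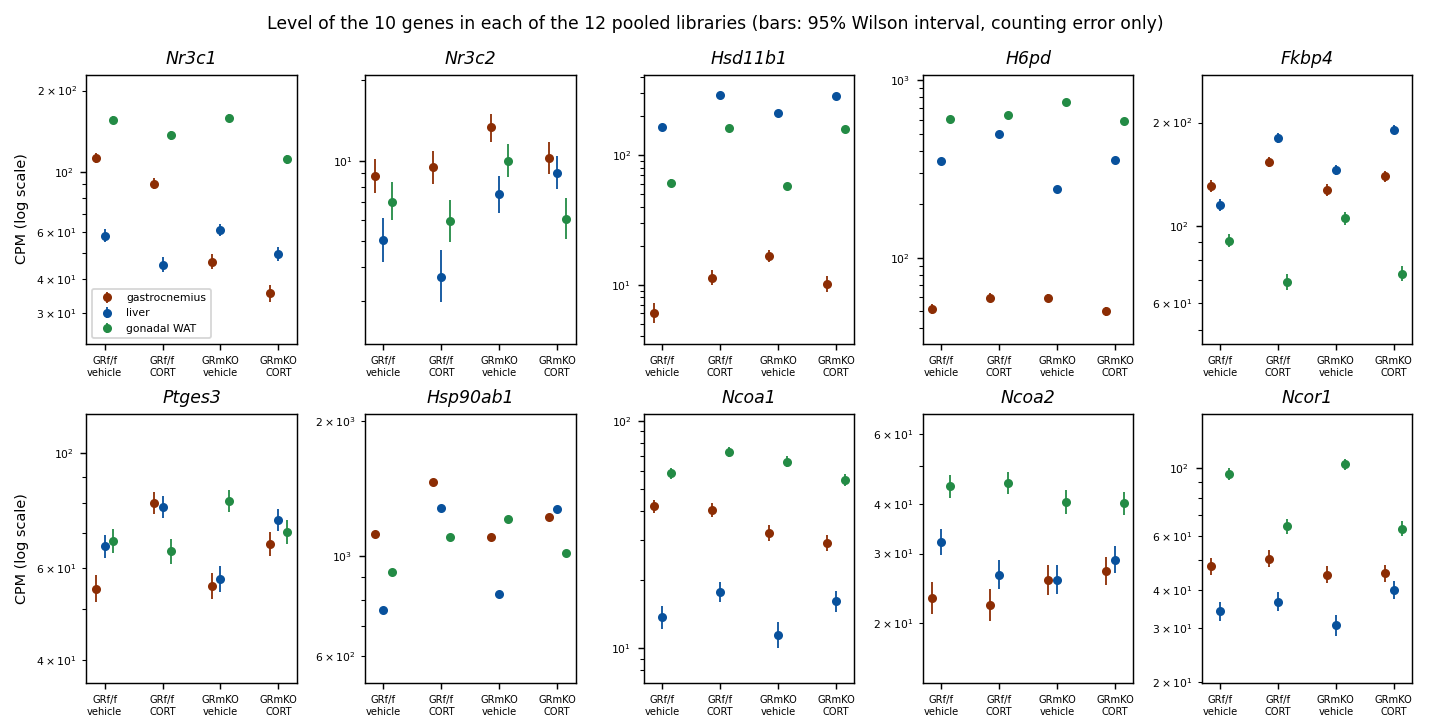
Level of the 10 genes (CPM, log scale) in each of the 12 pooled libraries, with the genotype and treatment on the horizontal axis, 1 point per library and the tissue given by colour, and bars for the 95% Wilson interval of the count. *Nr3c1* in gastrocnemius sits at 46.4 and 35.5 CPM in the GRmKO libraries against 113 and 90.4 CPM in the GRf/f libraries, and *Hsd11b1* in gonadal WAT sits at 162 and 158 CPM in the CORT libraries against 61.4 and 57.5 CPM in the vehicle libraries.

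The entries for *Hsd11b1* (ENSMUSG00000016194, GRCm38, chromosome 1, 193221634 to 193264075, minus strand) named a different transcript in muscle than in the other tissues, and this decides what may be compared. In gastrocnemius the entry was ENSMUST00000161737, of 7 exons and 1355 bases, whose first exon starts at 193264075. In liver and WAT it was ENSMUST00000016338, of 6 exons and 1623 bases, whose first exon starts at 193242629, 21446 bases downstream. Both begin translation at the same base, 193242262, and their coding sequences of 879 bases are identical and code for 292 residues. Each symbol kept 1 entry per tissue. The study's methods name a gene-level summary, but also a conversion of transcript IDs to gene names with the largest of duplicated entries kept, so whether a count covers the gene or the named transcript is uncertain. The 88 coding bases of the exon where translation begins are shown because both transcripts share them from the start codon, in capitals, onward (chr1:193242175-193242262, minus strand, from the GENCODE transcript sequences).
Hsd11b1 first coding exon: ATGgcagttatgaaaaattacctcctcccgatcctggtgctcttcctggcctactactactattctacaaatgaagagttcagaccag

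The remaining 9 members named the same transcript in the 3 tissues.

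*Nr3c1* (chromosome 18, 39410545 to 39519421, minus strand, transcript ENSMUST00000115571 of 8 exons and 6327 bases) was lower with CORT in all 6 tissue and genotype settings, by less than 2-fold in each. In gastrocnemius it stood at 113 CPM in vehicle GRf/f, 90.4 in CORT GRf/f, 46.4 in vehicle GRmKO and 35.5 in CORT GRmKO. In liver the same order of libraries gave 58.0, 45.2, 60.8 and 49.6 CPM, and in WAT 155, 136, 158 and 111 CPM. The CORT libraries were below the vehicle library of their own tissue and genotype each time. The ratio of CORT to vehicle was 0.80 (95% counting interval 0.75 to 0.85) in GRf/f and 0.77 (0.69 to 0.84) in GRmKO gastrocnemius, 0.78 (0.71 to 0.85) and 0.81 (0.75 to 0.89) in liver, and 0.88 (0.83 to 0.92) and 0.70 (0.67 to 0.74) in WAT. All 6 intervals lay below 1 with the library total, with TMM and with median-of-ratios scaling. The size was not unusual: between 18.8% and 41.9% of tested genes were lower by as much or more in the same comparison.

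The targeted gene also checks the labels. *Nr3c1* in gastrocnemius was lower in GRmKO than in GRf/f mice, at a ratio of 0.41 (0.38 to 0.44) under vehicle and 0.39 (0.36 to 0.43) under CORT, and both passed 2-fold. In liver the ratios were 1.05 (0.97 to 1.14) and 1.10 (1.00 to 1.2), and in WAT they were 1.02 (0.97 to 1.07) under vehicle and 0.82 (0.77 to 0.86) under CORT. The counts are over whole transcripts, so the level of the deleted exon itself was not measured. The CORT ratio of *Nr3c1* differed little between genotypes in gastrocnemius (log2 difference -0.07, -0.24 to 0.10) and in liver (0.06, -0.11 to 0.24), while in WAT it was lower in GRmKO (-0.32, -0.43 to -0.21).

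The levels of *Nr3c1* were highest in vehicle WAT and lowest in CORT GRmKO gastrocnemius. Vehicle WAT of both genotypes led, with overlapping counting intervals, and CORT WAT of GRf/f mice followed. Vehicle GRf/f gastrocnemius and CORT GRmKO WAT, at 113 and 111 CPM, overlapped. Vehicle GRmKO gastrocnemius overlapped with both CORT livers.

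*Nr3c2* (chromosome 8, 76899442 to 77245012, plus strand, transcript ENSMUST00000109912 of 9 exons and 5675 bases) had the lowest level per kilobase of transcript among the 10 genes in all 12 libraries. It stood at 8.79 CPM in vehicle GRf/f, 9.45 in CORT GRf/f, 13.3 in vehicle GRmKO and 10.2 in CORT GRmKO gastrocnemius. The same order gave 5.04, 3.70, 7.51 and 9.03 CPM in liver, and 7.04, 5.96, 10 and 6.08 CPM in WAT. Under vehicle the GRmKO library was the higher one in each tissue, muscle or not. The ratio of GRmKO to GRf/f under vehicle was 1.51 (1.25 to 1.85) in muscle, and 1.49 (1.15 to 1.91) and 1.42 (1.14 to 1.77) for liver and WAT. None of these 3 reached 2-fold, and 15.3%, 6.98% and 7.28% of tested genes were higher by as much or more.

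Under CORT the same comparison of *Nr3c2* gave 2.44 (1.86 to 3.23) in liver, past 2-fold, as 1 of 10 members against 4.72% of all tested genes. It gave 1.08 (0.88 to 1.33) in gastrocnemius and 1.02 (0.79 to 1.32) in WAT. The liver value joined a CORT to vehicle ratio of 0.73 (0.54 to 0.99) in GRf/f with one of 1.2 (0.97 to 1.5) in GRmKO, and the log2 difference between these was 0.71 (0.19 to 1.24). In WAT *Nr3c2* was lower with CORT in GRmKO, at 0.61 (0.48 to 0.77), and in GRf/f the ratio was 0.85 (0.66 to 1.09). *Hsd11b2*, which would shield this receptor, was listed at 0 in all 4 liver libraries, at 0 to 0.31 CPM in gastrocnemius and at 0.45 to 0.95 CPM in WAT.

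Set per kilobase of transcript, *Nr3c1* exceeded *Nr3c2* in every library. The ratio of their levels in liver was 10.3 (8.42 to 12.7) in vehicle GRf/f, 11 (8.63 to 14.0) in CORT GRf/f, 7.26 (6.16 to 8.66) in vehicle GRmKO and 4.93 (4.20 to 5.77) in CORT GRmKO. In WAT it was 19.8, 20.5, 14.2 and 16.4, and in gastrocnemius 11.5, 8.58, 3.13 and 3.11. The 2 gastrocnemius libraries of GRmKO mice held the lowest ratios of the 12. In liver under CORT the ratio was lower in GRmKO while *Nr3c1* itself was not, since *Nr3c2* was higher.

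*Hsd11b1* changed more with CORT than any other member in 5 of the 6 settings, GRmKO liver being the exception, and in WAT it rose in both genotypes. It stood at 61.4 CPM in vehicle GRf/f, 162 in CORT GRf/f, 57.5 in vehicle GRmKO and 158 in CORT GRmKO WAT. The CORT libraries did not overlap with the vehicle libraries, and within a treatment the genotypes were close. The ratio of CORT to vehicle was 2.64 (2.47 to 2.82) in GRf/f and 2.74 (2.56 to 2.94) in GRmKO, with a log2 difference between genotypes of 0.05 (-0.08 to 0.19). It was the 1 of 10 members past 2-fold in each of these comparisons, where 13.6% and 9.1% of all tested genes passed, and 2.61% and 1.30% of tested genes were higher by as much or more.

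Markers of other cells moved in the same WAT libraries. The sum of 6 macrophage genes was 837 CPM in vehicle GRf/f, 2000.0 in CORT GRf/f, 1052 in vehicle GRmKO and 1957 in CORT GRmKO, and all 6 were higher with CORT in both genotypes. In the same order the sum of 4 B cell genes was 10.5, 1.46, 15.9 and 3.81 CPM. All 4 were lower past 2-fold with CORT in both genotypes, against 8.07% and 5.63% of all tested genes lower. The sum of 5 endothelial genes was 623, 231, 577 and 311 CPM, that of 5 fibroblast genes was 2248, 2572, 2167 and 2601 CPM, and that of 8 adipocyte genes was 30773, 26469, 32657 and 26269 CPM. The last 2 lists were mixed. With CORT, 3 of 5 fibroblast genes were higher in GRf/f and 2 of 5 in GRmKO. Of the 8 adipocyte genes, 2 were higher in GRf/f and 3 in GRmKO. Among them *Lep* rose (log2 changes of 2.95 and 1.31) and *Cfd* fell (-3.95 and -3.16) past 2-fold. Their part in the levels of *Hsd11b1* and of the other members in WAT was not tested.

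In liver, where *Hsd11b1* was above WAT in each genotype and treatment, it stood at 164 CPM in vehicle GRf/f, 291 in CORT GRf/f, 211 in vehicle GRmKO and 286 in CORT GRmKO. The ratio of CORT to vehicle was 1.77 (1.70 to 1.85) in GRf/f and 1.35 (1.30 to 1.41) in GRmKO, neither past 2-fold. The smaller ratio in GRmKO came with a higher vehicle level, since GRmKO stood at 1.28 (1.23 to 1.34) times GRf/f under vehicle and at 0.98 (0.95 to 1.02) times under CORT. In the same order of libraries the sum of the 8 hepatocyte genes was 88187, 115913, 110318 and 145495 CPM. *Alb* carried its higher CORT values (49853, 83251, 71267 and 111499 CPM), while *Cyp2e1* fell past 2-fold in both genotypes and *Apoa1* in GRf/f, and the median log2 change of the 8 was -0.03 in GRf/f and 0.05 in GRmKO. The sum of the 6 macrophage genes was 161, 52.6, 128 and 81.6 CPM. Their part in the liver levels of the members was not tested.

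In gastrocnemius the genotypes moved in opposite directions with CORT. The entry there names the other transcript, so its level is not set against liver or WAT. *Hsd11b1* stood at 5.99 CPM in vehicle GRf/f, 11.3 in CORT GRf/f, 16.6 in vehicle GRmKO and 10.1 in CORT GRmKO. Vehicle GRf/f was the lowest library, vehicle GRmKO the highest, and the counting intervals of the CORT libraries overlapped. The ratio of GRmKO to GRf/f under vehicle was 2.78 (2.24 to 3.45), past 2-fold, where 2 of 10 members (*Nr3c1* and *Hsd11b1*) passed against 7.77% of all tested genes. Under CORT it was 0.89 (0.74 to 1.09), and *Nr3c1* was then the 1 of 10 members past 2-fold against 9.71% of all tested genes. The ratio of CORT to vehicle was 1.89 (1.5 to 2.37) in GRf/f and 0.61 (0.51 to 0.73) in GRmKO, a log2 difference of -1.63 (-2.04 to -1.23), and no member passed 2-fold with CORT in gastrocnemius of either genotype, against 7.97% and 6.53% of all tested genes.

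Other cell types differed between the same 4 muscle libraries. The sum of 5 fibroblast genes was 1447 CPM in vehicle GRf/f, 487 in CORT GRf/f, 2181 in vehicle GRmKO and 707 in CORT GRmKO, and the sum of 6 macrophage genes was 130, 131, 441 and 169 CPM. Both were highest in the vehicle GRmKO library, the one that also held the most *Hsd11b1*. The sum of 8 muscle fibre genes was lowest in that library (141891, 136118, 103112 and 128966 CPM). Between genotypes under vehicle, 1 of these 8 was lower past 2-fold (*Myh4*, -1.22) and 1 higher (*Mylpf*, 1.02). Of all tested genes, 3.18% were lower and 4.59% higher there. The sum of 8 adipocyte genes was 267, 667, 366 and 524.8 CPM, and that of 8 hepatocyte genes was 45.7, 113, 131 and 359 CPM, led by *Alb* in the GRmKO libraries and by *Cyp2e1* in the GRf/f libraries. All markers of the fibroblast, macrophage and hepatocyte lists were above 0 in these libraries, and the adipocyte gene *Cidec* was at 0 in vehicle GRmKO. Their part in the *Hsd11b1* and *Nr3c1* levels was not tested.

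**Figure D2:**
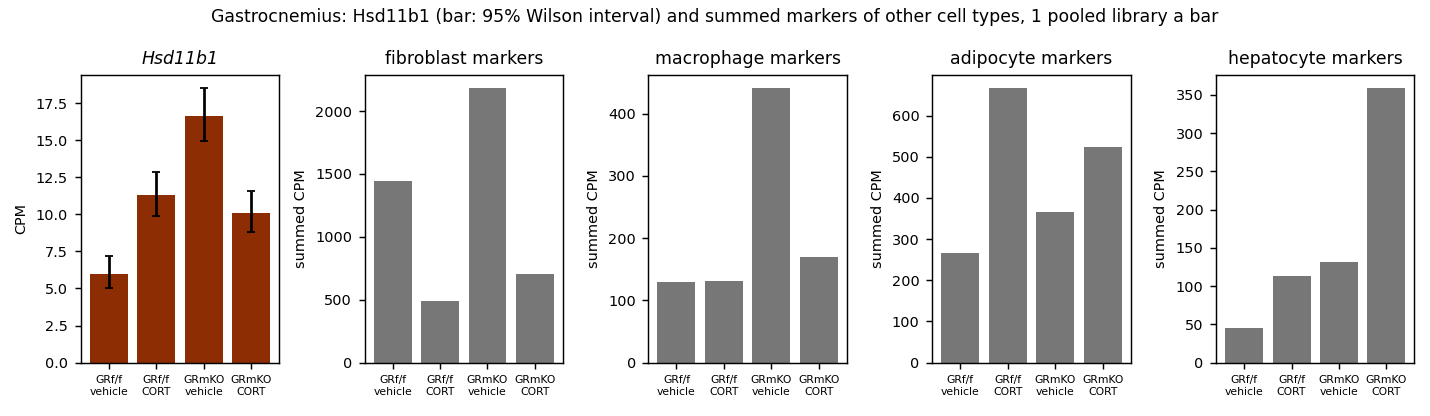
*Hsd11b1* in the 4 gastrocnemius libraries (CPM, bars with the 95% Wilson interval) beside the summed CPM of fibroblast, macrophage, adipocyte and hepatocyte genes in the same libraries, 1 pooled library per bar. The vehicle GRmKO bar is the tallest for *Hsd11b1* (16.6 CPM), fibroblast genes (2181 CPM) and macrophage genes (441 CPM), and not for adipocyte or hepatocyte genes.

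*H6pd* (chromosome 4, 149979475 to 150009023, minus strand, transcript ENSMUST00000084117 of 5 exons and 4571 bases), which feeds NADPH to the reactivation step, was higher with CORT in liver of both genotypes. It stood at 351 CPM in vehicle GRf/f, 499 in CORT GRf/f, 245 in vehicle GRmKO and 355 in CORT GRmKO liver. The ratio of CORT to vehicle was 1.42 (1.38 to 1.46) and 1.45 (1.4 to 1.5), and the ratio of GRmKO to GRf/f was 0.70 (0.67 to 0.72) under vehicle and 0.71 (0.69 to 0.73) under CORT. The CORT and the GRmKO differences of *H6pd* were thus of like size and opposite direction, and the CORT GRmKO liver stood beside the vehicle GRf/f liver. None passed 2-fold, but 5.28% and 9.73% of tested genes were lower by as much or more between genotypes.

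The *H6pd* level in WAT was 604 CPM in vehicle GRf/f, 635 in CORT GRf/f, 756 in vehicle GRmKO and 588 in CORT GRmKO. The vehicle GRmKO library stood above the other WAT libraries, so the ratio of CORT to vehicle was 1.05 (1.03 to 1.08) in GRf/f and 0.78 (0.76 to 0.80) in GRmKO. Gastrocnemius held 51.5, 59.4, 59.2 and 49.9 CPM, with CORT ratios of 1.15 (1.06 to 1.26) in GRf/f and 0.84 (0.77 to 0.92) in GRmKO.

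The balance between the enzymes differed by tissue. Per kilobase of transcript, *Hsd11b1* exceeded *H6pd* in all 4 liver libraries, at ratios of 1.32 (1.27 to 1.37) in vehicle GRf/f, 1.64 (1.59 to 1.70) in CORT GRf/f, 2.43 (2.33 to 2.53) in vehicle GRmKO and 2.26 (2.19 to 2.34) in CORT GRmKO. In WAT *H6pd* was in excess, and the ratio was 0.29 (0.27 to 0.30), 0.72 (0.69 to 0.75), 0.21 (0.20 to 0.23) and 0.75 (0.73 to 0.78). In both genotypes the WAT ratio was higher with CORT, and the intervals of the treatments did not overlap. In gastrocnemius it was 0.39, 0.64, 0.95 and 0.68, on the other *Hsd11b1* transcript.

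Genes that supply, carry or clear corticosterone were counted from a list of 10. This list and those below were chosen with earlier results of these data known, so their counts may be high by choice. *Serpina6*, which encodes corticosteroid-binding globulin, the plasma carrier made by the liver, fell in liver of both genotypes, from 284 to 59.9 CPM in GRf/f and from 403 to 85.4 CPM in GRmKO (log2 changes of -2.24 and -2.23). *Slc37a4*, the transporter that brings glucose 6-phosphate into the endoplasmic reticulum, rose in GRf/f liver from 136 to 289 CPM (1.09) and stood at 169 and 240 CPM in GRmKO liver (0.50). *Akr1d1*, the steroid 5β-reductase, rose from 110 to 340 CPM in GRf/f liver (1.62) and stood at 180 and 264 CPM in GRmKO (0.55). These made 2 of the 10 higher and 1 lower in GRf/f liver, where 9 of the 10 were tested and 5.9% of all tested genes were higher and 5.72% lower, and 1 of the 10 lower in GRmKO liver, where 2.82% were lower.

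In WAT *G6pdx*, the cytosolic glucose-6-phosphate dehydrogenase, rose from 326 to 800 CPM in GRf/f (1.29) and from 313 to 754 CPM in GRmKO (1.27). *Akr1c14*, a 3α-hydroxysteroid dehydrogenase, fell from 4.11 to 1.31 CPM and from 7.04 to 1.46 CPM (-1.35 and -1.95), and *Abcb1a*, a steroid exporter, fell in GRmKO from 30.1 to 14.1 CPM (-1.07). Of the 10, 7 of them tested, 1 was thus higher and 1 lower in GRf/f WAT, where 5.49% of all tested genes were higher and 8.07% lower, and 1 higher and 2 lower in GRmKO, where the shares were 3.47% and 5.63%. In gastrocnemius *G6pdx* rose with CORT in GRf/f from 9.51 to 22.5 CPM (1.2) and *Akr1c14* fell from 2.82 to 0.63 CPM (-1.55), against 3.26% of all tested genes higher and 4.72% lower, while 0 of 6 tested passed in GRmKO. *Akr1c14* was higher in GRmKO than in GRf/f under CORT (2.15 against 0.63 CPM, 1.23), where 4.4% were higher. Also in gastrocnemius, *Slc37a4* was higher in GRmKO than in GRf/f under vehicle, at 58.0 against 25.9 CPM (1.15), 1 of 6 tested against 4.59% of all tested genes higher.

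The 3 chaperones of the receptor complex were higher with CORT in gastrocnemius and liver of both genotypes, each by less than 2-fold. *Hsp90ab1* (chromosome 17, 45567775 to 45573271, minus strand, transcript ENSMUST00000024739), the constitutive HSP90β that holds GR ready for hormone, was the most abundant member per kilobase in all 12 libraries. In gastrocnemius it stood at 1122 CPM in vehicle GRf/f, 1462 in CORT GRf/f, 1100.1 in vehicle GRmKO and 1221 in CORT GRmKO. The CORT ratios were 1.30 (1.28 to 1.33) and 1.11 (1.09 to 1.13). In liver it stood at 758, 1278, 822 and 1272 CPM, with ratios of 1.69 (1.65 to 1.72) and 1.55 (1.52 to 1.58), the largest of the 3 chaperones there in GRf/f and in GRmKO. In WAT the levels were 921, 1101, 1208 and 1017 CPM, and the CORT ratio was 1.2 (1.17 to 1.22) in GRf/f and 0.84 (0.83 to 0.86) in GRmKO. Reads shared with the near-identical parts of *Hsp90aa1* were divided between the genes by the quantification, so small differences of *Hsp90ab1* are uncertain.

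*Fkbp4* (chromosome 6, 128429735 to 128438677, minus strand, transcript ENSMUST00000032508 of 10 exons) encodes FKBP52, the immunophilin that couples the receptor to its transport into the nucleus. It stood at 131 CPM in vehicle GRf/f, 154 in CORT GRf/f, 128 in vehicle GRmKO and 140 in CORT GRmKO gastrocnemius, and at 115, 180, 146 and 191 CPM in liver. The CORT ratios were 1.17 (1.11 to 1.24) and 1.09 (1.04 to 1.15) in gastrocnemius and 1.57 (1.49 to 1.65) and 1.31 (1.25 to 1.37) in liver. WAT went the other way, from 90.9 to 68.8 CPM in GRf/f and from 105 to 72.8 CPM in GRmKO, ratios of 0.76 (0.70 to 0.81) and 0.69 (0.65 to 0.74).

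*Ptges3* (chromosome 10, 128058954 to 128077272, plus strand, transcript ENSMUST00000052798 of 8 exons) encodes p23, which stabilises the HSP90 complex with bound receptor. It stood at 54.8, 80.0, 55.5 and 66.7 CPM in gastrocnemius, in the order vehicle GRf/f, CORT GRf/f, vehicle GRmKO and CORT GRmKO, at 66.1, 78.6, 57.2 and 74.2 CPM in liver and at 67.7, 64.6, 80.8 and 70.5 CPM in WAT. The CORT ratios were 1.46 (1.35 to 1.58) and 1.2 (1.11 to 1.30) in gastrocnemius and 1.19 (1.11 to 1.28) and 1.30 (1.2 to 1.4) in liver. In WAT they were 0.95 (0.88 to 1.03) and 0.87 (0.81 to 0.94), and the interval of neither stayed on one side of 1 in all 3 scalings.

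**Figure D3:**
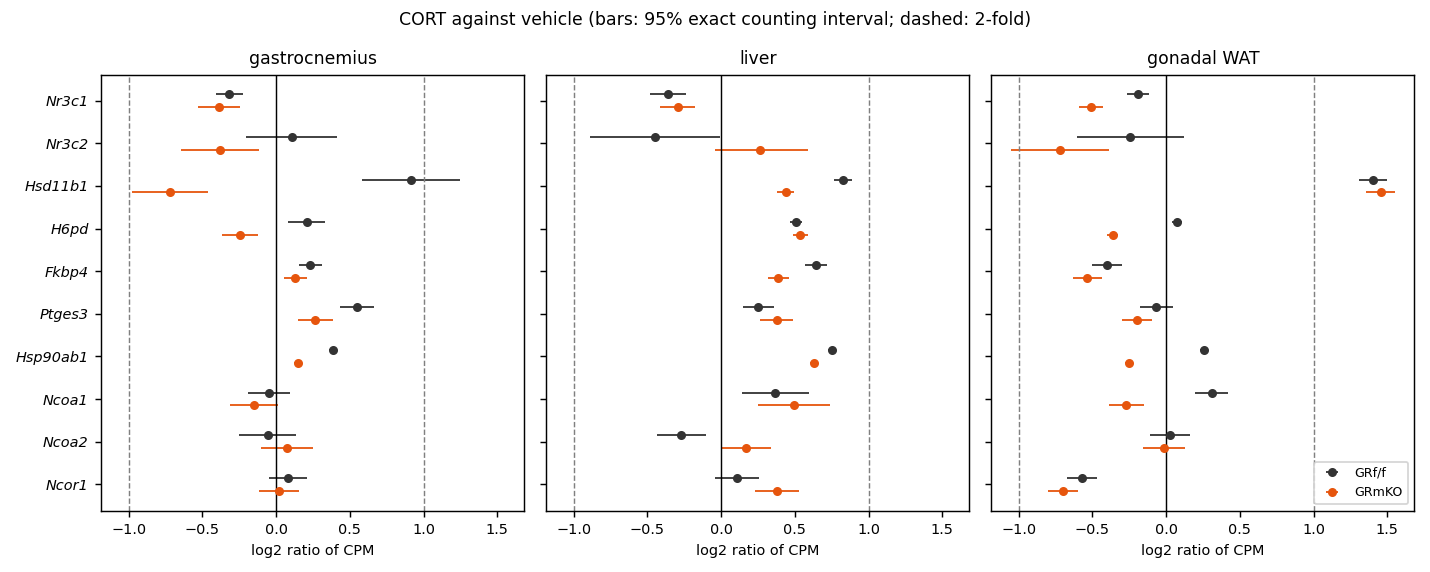
Log2 ratio of CPM, CORT against vehicle, for the 10 genes in gastrocnemius, liver and gonadal WAT, with GRf/f in black and GRmKO in orange, bars for the 95% exact counting interval and dashed lines at 2-fold. *Hsd11b1* in WAT is beyond 2-fold in both genotypes, *Nr3c1* is left of 0 in all 3 panels, and the chaperones are right of 0 in gastrocnemius and liver.

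The other genes of the chaperone cycle, 14 in a list, included several past 2-fold with CORT in muscle and liver, and all of those were higher. The list was chosen with earlier results known, so its counts and medians may be high by choice. *Fkbp5* is also among the receptor targets counted below. In gastrocnemius 5 of 14 were higher past 2-fold and 0 lower (median log2 change 0.51, against -0.08 over all tested genes), where 3.26% of tested genes were higher. The 5 were *Fkbp5* (2.51), the immunophilin that lowers receptor affinity for hormone, the HSP40 co-chaperones *Dnajb1* (2.39) and *Dnaja1* (1.64), the inducible HSP90α gene *Hsp90aa1* (2.24) and the HSP70 exchange factor *Bag1* (1.46). In GRmKO gastrocnemius 1 of 14 passed, *Dnajb1* (1.42), where 1.51% of tested genes were higher. In liver 5 of 14 were higher in GRf/f (*Fkbp5*, *Hsp90aa1*, *Dnajb1*, *Bag1* and the constitutive HSP70 gene *Hspa8*) and 2 of 14 in GRmKO (*Bag1* at 1.41 and *Fkbp5* at 1.06), with 0 lower in either and list medians of 0.57 and 0.49, where 5.9% and 2.8% of all tested genes were higher. Between genotypes in gastrocnemius, *Bag1* was higher (1.94) and *Fkbp5* lower (-1.03) in GRmKO under vehicle, against 4.59% of all tested genes higher and 3.18% lower, and *Fkbp5* (-4.06) and *Hsp90aa1* (-1.2) were lower under CORT, against 5.31%.

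The HSP90 pair can be read side by side in muscle. *Hsp90aa1* stood at 53.7 CPM in vehicle GRf/f, 256 in CORT GRf/f, 59.6 in vehicle GRmKO and 111 in CORT GRmKO gastrocnemius, while *Hsp90ab1* differed between treatments by at most 1.30-fold. *Fkbp5*, which competes with *Fkbp4* for the same place on HSP90, stood at 61.9, 355, 30.0 and 20.8 CPM in these libraries. In WAT 2 of 14 were higher with CORT in GRf/f (*Hspa8* at 1.44 and *Fkbp5* at 1.60), 1 was lower (*Bag1* at -1.24), and 0 of 14 passed in GRmKO. Of all tested genes in WAT, 5.49% were higher and 8.07% lower in GRf/f, and 3.47% and 5.63% in GRmKO. *Hspa8* was also higher in GRmKO than in GRf/f WAT under vehicle, at 1143 against 570.3 CPM, where 1.07% were higher.

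**Figure D4:**
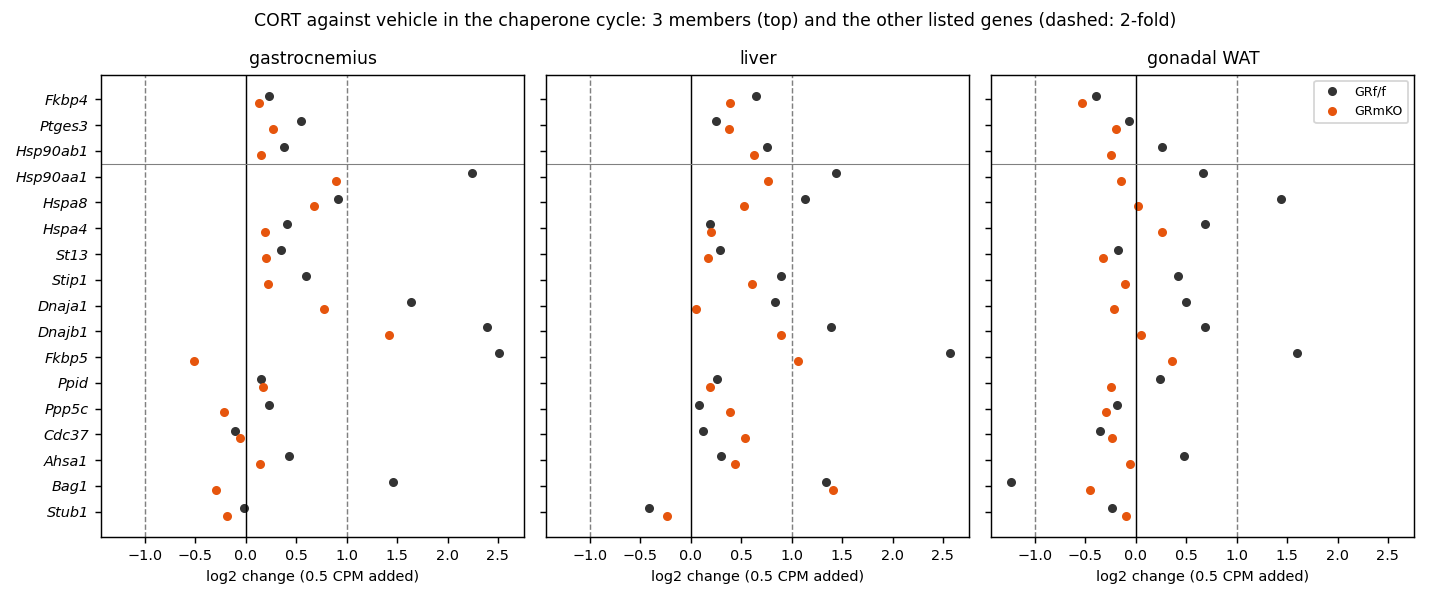
Log2 change (0.5 CPM added) with CORT in GRf/f (black) and GRmKO (orange) for *Fkbp4*, *Ptges3* and *Hsp90ab1* (above the line) and 14 other genes of the chaperone cycle, by tissue, with dashed lines at 2-fold. In gastrocnemius 5 of the 14 are beyond 2-fold in GRf/f and 1 in GRmKO, and in liver 5 and 2.

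The sequence upstream of *Fkbp4* and *Ptges3* is shown because both were higher with CORT in muscle and liver and code for parts of one complex. The stretches run from 250 bases before the RefSeq start (GRCm38.p6) to the base before the GENCODE transcript, 229 bases for *Fkbp4* (chr6:128438678-128438906, minus strand) and 222 for *Ptges3* (chr10:128058732-128058953, plus strand). Capitals mark CCAAT boxes and 2-unit heat shock elements (GAANNTTC or TTCNNGAA), on either strand.
Fkbp4 upstream: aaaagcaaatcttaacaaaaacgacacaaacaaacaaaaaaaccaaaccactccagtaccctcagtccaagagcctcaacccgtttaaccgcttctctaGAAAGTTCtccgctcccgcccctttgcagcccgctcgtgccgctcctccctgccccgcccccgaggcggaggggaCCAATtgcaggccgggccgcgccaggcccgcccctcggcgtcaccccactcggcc
Ptges3 upstream: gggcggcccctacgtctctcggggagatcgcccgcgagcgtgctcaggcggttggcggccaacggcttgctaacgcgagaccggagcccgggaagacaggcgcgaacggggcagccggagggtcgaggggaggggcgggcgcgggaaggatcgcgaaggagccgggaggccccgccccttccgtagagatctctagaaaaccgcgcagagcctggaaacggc
The *Fkbp4* stretch holds 1 GAANNTTC and 1 CCAAT, and the *Ptges3* stretch holds 0 of either. The *Nr3c2* window, of 300 bases, also holds 1 GAANNTTC and 3 CCAAT, and the *Hsd11b1* and *H6pd* windows hold 1 CCAAT each. Over the first 229 bases of 32851 RefSeq promoter windows, the *Fkbp4* length, 5.98% held GAANNTTC and 32% held CCAAT. Over 222 bases, the *Ptges3* length, the shares were 5.78% and 31.2%, and over full windows of 300 bases they were 7.86% and 37.4%. The 3-unit heat shock elements GAANNTTCNNGAA and TTCNNGAANNTTC, each in 0.603% of full windows of 300 bases, and the receptor's own palindrome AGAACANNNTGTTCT, in 3 windows (0.00913%), were in none of the 8 windows that matched 7 of the 10 members. *Nr3c1*, *Hsp90ab1* and *Ncoa2* had no entry. The *Hsd11b1* window lies at the liver and WAT start and not at the muscle one. Both *Ncor1* windows lie far upstream of the start of the transcript that its entry names.

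None of the 3 cofactors passed 2-fold in any comparison. *Ncoa1* (SRC-1, chromosome 12, 4247362 to 4477182, minus strand), a coactivator of steroid receptors, stood at 42.1 CPM in vehicle GRf/f, 40.8 in CORT GRf/f, 32.2 in vehicle GRmKO and 28.9 in CORT GRmKO gastrocnemius. It was lower in GRmKO, at 0.76 (0.69 to 0.85) under vehicle and 0.71 (0.64 to 0.79) under CORT. In liver it stood at 13.7, 17.7, 11.4 and 16.1 CPM and was higher with CORT, at 1.29 (1.10 to 1.51) in GRf/f and 1.41 (1.19 to 1.67) in GRmKO. In WAT it stood at 58.9, 72.9, 66.3 and 55.0 CPM, with CORT ratios of 1.24 (1.15 to 1.34) and 0.83 (0.77 to 0.90).

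*Ncoa2* (SRC-2 or GRIP1, chromosome 1, 13139105 to 13374083, minus strand), which can coactivate or corepress with GR, had the CORT ratios nearest 1 among the 10. It stood at 23.1, 22.2, 25.8 and 27.1 CPM in gastrocnemius, 32.0, 26.5, 25.8 and 29.0 in liver and 44.3, 45.2, 40.5 and 40.1 in WAT, in the same order of libraries. Its CORT ratios ran from 0.83 to 1.12 over the 6 settings, and its interval stayed on one side of 1 in all scalings in 1 of them, GRf/f liver at 0.83 (0.74 to 0.93). Per kilobase, *Ncoa1* exceeded *Ncoa2* in GRf/f gastrocnemius at 1.99 (1.77 to 2.23) under vehicle and 2.0 (1.78 to 2.26) under CORT, and in GRmKO at 1.36 (1.21 to 1.53) and 1.16 (1.04 to 1.31). In liver *Ncoa2* was the higher of the 2 in all 4 libraries.

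*Ncor1* (chromosome 11, 62316426 to 62458541, minus strand), which brings histone deacetylase 3 to receptors, was lower with CORT in WAT of both genotypes. It stood at 95.8 CPM in vehicle GRf/f, 64.6 in CORT GRf/f, 103 in vehicle GRmKO and 63.4 in CORT GRmKO WAT, so that the treatments did not overlap. The CORT ratios were 0.67 (0.63 to 0.72) and 0.62 (0.57 to 0.66), against which 19.9% and 12.5% of tested genes were lower by as much or more. In gastrocnemius it held 47.8, 50.6, 44.8 and 45.3 CPM and in liver 34.0, 36.6, 30.7 and 39.9 CPM. With *Ncoa1* higher in GRf/f, the ratio of *Ncoa1* to *Ncor1* per kilobase in WAT went from 0.53 (0.49 to 0.57) to 0.97 (0.90 to 1.05) with CORT, and in GRmKO from 0.56 (0.52 to 0.60) to 0.75 (0.69 to 0.81).

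Among 10 further coactivators 0 passed 2-fold in any of the 12 comparisons, where 2.22% to 13.6% of all tested genes passed. Among 8 further corepressors, *Sin3a* (7.93 to 22.3 CPM, log2 change 1.44) and *Nrip1* (5.70 to 12.3 CPM, 1.04) rose with CORT in GRf/f liver, 2 of 8 against 5.9% of all tested genes higher. *Gps2* was higher in GRmKO liver under vehicle (1.08) and CORT (1.09), 1 of 8 against 1.26% and 2.44%.

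In gastrocnemius 7 genes known as direct targets of GR were read beside the receptor level. In GRf/f *Fkbp5* (2.51) and *Zbtb16* (1.02) were higher with CORT past 2-fold and *Sgk1* (-1.78) and *Per1* (-1.27) were lower, and in GRmKO 0 of 7 passed either way. Of all tested genes, 3.26% were higher and 4.72% lower in GRf/f, and 1.51% and 5.02% in GRmKO. Between genotypes under CORT, *Fkbp5* (20.8 CPM in GRmKO against 355 in GRf/f, -4.06) and *Zbtb16* (31.4 against 159 CPM, -2.33) were lower in GRmKO and *Sgk1* (217 against 75.2 CPM, 1.52) was higher, 2 of 7 and 1 of 7 against 5.31% lower and 4.4% higher. Under vehicle *Per1* (-2.01), *Zbtb16* (-1.34) and *Fkbp5* (-1.03) were lower, 3 of 7 against 3.18%, and 0 of 7 were higher. In WAT *Fkbp5* (1.60) rose and *Sgk1* (-1.55), *Dusp1* (-1.34) and *Per1* (-1.09) fell with CORT in GRf/f, and *Per1* (-1.83) and *Zbtb16* (-1.09) fell in GRmKO, against the WAT shares given above. In liver, where 6 of the 7 were tested, *Fkbp5* rose in both genotypes (2.57 and 1.06) and *Tsc22d3* fell in GRmKO (-1.12). Of all tested genes there, 5.9% were higher in GRf/f, and 2.8% were higher and 2.82% lower in GRmKO. Between genotypes outside muscle, *Zbtb16* was higher in GRmKO under vehicle in liver (1.43) and WAT (1.04), against 1.26% and 1.07%, and *Dusp1* under CORT in WAT (1.08), against 1.43%. The targets thus did not move in one direction. In gastrocnemius 2 of 7 were higher with CORT in GRf/f (median log2 change -0.81, against -0.08 over all tested genes). In GRmKO 3 of 7 were higher (-0.03 against -0.10). *Nr3c1* itself was lower there with CORT in both genotypes, and its part in the levels of the targets was not tested.

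**Figure D5:**
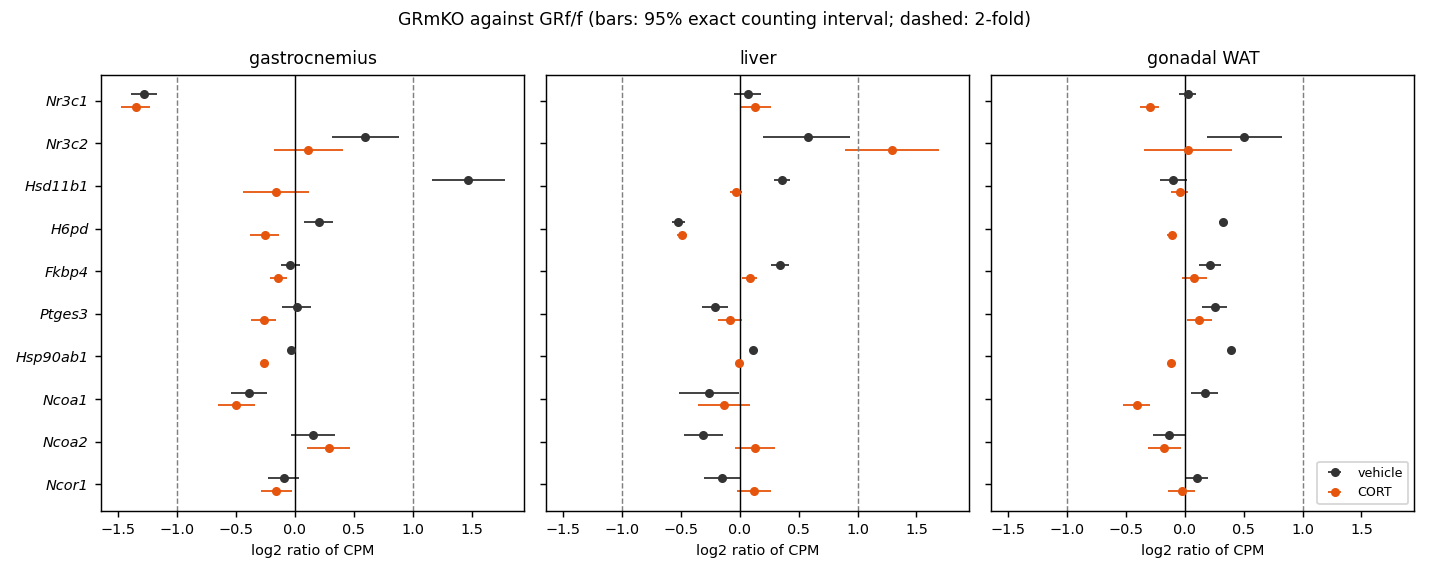
Log2 ratio of CPM, GRmKO against GRf/f, for the 10 genes by tissue, with vehicle in black and CORT in orange, bars for the 95% exact counting interval and dashed lines at 2-fold. *Nr3c1* is left of -1 in gastrocnemius under both treatments and within 1.5-fold in liver and WAT, and *Nr3c2* is right of 0 under vehicle in all 3 tissues.

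Of the 4 genotype comparisons in liver and WAT, 1 held a member past 2-fold, *Nr3c2* in liver under CORT. In liver 0 of 10 members passed 2-fold under vehicle, against 2.3% of all tested genes, and in WAT 0 of 10 passed under vehicle and 0 under CORT, against 2.22% and 2.62%. With CORT 0 of 10 members passed in liver of GRf/f or GRmKO mice, against 11.6% and 5.61%. At 1.5-fold, *Hsd11b1*, *Fkbp4* and *Hsp90ab1* passed in GRf/f liver, 3 of 10 against 27.2% of all tested genes, and *Hsp90ab1* alone in GRmKO liver, against 17.7%. In GRmKO WAT *Hsd11b1*, *Nr3c2* and *Ncor1* passed 1.5-fold, against 25.1%, and in GRf/f WAT *Hsd11b1* alone, against 32.6%. *Hsd11b1* was also the 1 member past 1.5-fold with CORT in gastrocnemius of GRf/f (against 22.6%) and of GRmKO mice (against 18.9%). Between genotypes the members past 1.5-fold were those past 2-fold, where 24% of tested genes passed in gastrocnemius under vehicle and 27.7% under CORT, 9.92% and 16.5% in liver, and 9.67% and 10.6% in WAT.

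The genes most like the receptors across the 12 libraries were sought by Pearson correlation of log2(CPM + 0.5) centred on each tissue, over 6134 symbols with at least 5 CPM on average in each tissue. For *Nr3c1* they were *Arrdc2* (r = 0.94), *Rbm10* (0.93), *Mtr* (0.91), *Cep85l* (0.91) and *Kdm5a* (0.90). For *Nr3c2* they were *Cavin1* (0.94), *Smarce1* (0.93), *Atp6v1g1* (0.91), *Prkag1* (0.91) and *Bud13* (0.90), and for *Hsd11b1* they were *Uck2* (0.98), *Ufsp2* (0.96), *Anapc4* (0.94), *Tmem208* (0.93) and *Gatad1* (0.92). The 12 points share libraries and scaling, and the highest of so many correlations are high by selection, so the names are a description.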

How the data were processed

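Estimated counts of RNA-seq of 12 pooled libraries were used as the authors deposited them. The authors ran Salmon 1.2.1 against GENCODE M20 protein-coding transcripts (GRCm38) and imported the result with tximport (summarizeToGene, lengthScaledTPM, R 3.5.0). They kept, for a symbol listed more than once, the entry with the largest total. These expected counts were divided by the library total to give CPM. Counts were rounded for 95% intervals (Wilson for a level, Clopper-Pearson for a ratio), which cover counting error only. A difference of 2 log2 ratios was given a normal interval from the inverse counts. The 2-fold rule, with 0.5 CPM added, was applied to genes with a value above 0 in each of a tissue's 4 libraries (13543, 12485 and 14218 genes in gastrocnemius, liver and WAT), with no p-value, since each group had 1 library. The script was tested on simulated data. The alternatives were edgeR 4.0.16 TMM and DESeq2 1.42.0 median-of-ratios scaling, 0.1 and 1 CPM added, a mean of at least 5 CPM, no filter, and a 1.5-fold rule. NOISeq was not run. Named were the 10 members, *Hsd11b2*, genes past 2-fold in the reported lists other than the marker lists, some marker genes, and the 5 symbols most like 3 members. Members, lists and motifs were chosen with earlier results of these data known. Depth ran from 19394572 to 20940660 counts per library. RefSeq promoter windows came from GRCm38.p6. Python 3.11.15 with scipy 1.17.1 was used. One gene list is not reported here.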

Additional observations from a re-analysis of the deposited data

Results flagged for a closer look

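In 4 cases the single libraries of the 2 genotypes went opposite ways with CORT with both counting intervals clear of no change in all 3 scalings, and the difference was not tested, since each genotype had 1 library per treatment. *Hsd11b1* in gastrocnemius was higher with CORT in GRf/f (5.99 to 11.3 CPM) and lower in GRmKO (16.6 to 10.1 CPM), a log2 difference of -1.63 (-2.04 to -1.23). In gonadal WAT, *H6pd* differed by -0.44 (604 to 635 CPM in GRf/f, 756 to 588 CPM in GRmKO), *Hsp90ab1* by -0.51 (921 to 1101 CPM, 1208 to 1017 CPM) and *Ncoa1* by -0.58 (58.9 to 72.9 CPM, 66.3 to 55.0 CPM).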

How the results depend on the processing

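The 6 member changes past 2-fold were the same 6 with TMM and median-of-ratios scaling, and *Nr3c1* in gastrocnemius of GRmKO mice kept its call with each alternative tried. The scalings moved the median of all genes by over 0.1 (log2) for CORT in gastrocnemius (0.11 by median-of-ratios in GRf/f, 0.15 by TMM in GRmKO) and in GRmKO WAT (0.12 by TMM), and turned the sign of 7 of the 120 member changes, none of which is given a direction above. Over 480 member alternatives, 60 moved beyond the counting interval, and no change past 2-fold turned its sign (the 7 turns were of smaller changes). At 1.5-fold the members called went from 0 to 1 with CORT in GRf/f and from 0 to 1 in GRmKO gastrocnemius, from 0 to 3 and from 0 to 1 in liver, and from 1 to 3 in GRmKO WAT. With a mean of at least 5 CPM the genes past 2-fold, in the order CORT in GRf/f, CORT in GRmKO, genotype under vehicle and genotype under CORT, went from 1080, 885, 1052 and 1315 to 672, 441, 616 and 761 in gastrocnemius, from 1451, 701, 287 and 589 to 819, 442, 182 and 329 in liver, and from 1928, 1294, 316 and 372 to 1285, 817, 206 and 246 in WAT. With no filter they went to 1401 (CORT in GRmKO) and 1621 (genotype under vehicle) in gastrocnemius, to 1143, 657 and 982 in liver (all but CORT in GRf/f), and to 708 and 767 in WAT (both genotype comparisons); these settings test fewer and more low genes. No paired analysis was possible because each group held 1 library. Mouse to mouse spread was not measured, and the transcript an entry names may not carry all its reads.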
